A study of Mus musculus with 2 samples.

Results

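Liver sinusoidal endothelial cells were identified in a preparation made for liver macrophages. The members were chosen by the molecules of 6 genes together, Ptprb, Kdr, Clec4g, Oit3, Gpr182 and Egfl7, counted as unique molecular identifiers (UMIs, one tag per captured transcript). A cell qualified with at least 5 such UMIs that made up at least 0.1% of all its UMIs. Of 9571 kept cells, 606 were members, which was 258 of 6898 cells in library 2 and 348 of 2673 cells in library 1. Kept cells had at least 200 genes, at most 20% mitochondrial UMIs, and a barcode sequence that did not occur in the other library with more than 5 times the UMIs.

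The study took non-parenchymal liver cells from 1 Spta sph/sph mouse and 1 Spta wt/wt littermate, both male, 8 to 10 weeks old and untreated. Livers were perfused with collagenase in the animal, and cells that bound an antibody against F4/80, a macrophage surface protein, were pulled down with magnetic beads. Endothelial cells were not the target of that selection, so their share here is not their share of the liver. Each suspension was loaded for a target of 10000 cells and sequenced from the 3′ ends of transcripts in droplets. The deposited matrix divides its barcodes into library 1 and library 2, and no label ties either library to a genotype. Genotype, mouse and library therefore cannot be told apart, and no difference has a replicate check. Intervals are exact 95% intervals for counting error only.

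Sinusoidal endothelial cells line the smallest vessels of the liver. They have open pores and little basement membrane, and they take up waste molecules and immune complexes from blood through scavenger receptors such as stabilin 1 and stabilin 2. They respond to vascular endothelial growth factor (VEGF) through Kdr, send BMP2 and BMP6 to hepatocytes to control hepcidin, and send WNT2 from the central side of the lobule. Loss of this character, called capillarization, is marked in mouse liver by Cd34 and Vwf among other genes.

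The promoters of 4 genes are shown because 2 of them, Kdr and Clec4g, helped to define the cells, and the other 2, Esm1 and Kit, lay at opposite ends of the difference between libraries described below. The sequences are the 250 bases before each RefSeq gene start on build GRCm38.p6, written 5′ to 3′ on the gene's strand: chr5:75978456-75978705 (minus) for Kdr, chr8:3720652-3720901 (minus) for Clec4g, chr13:113209409-113209658 (plus) for Esm1 and chr5:75574737-75574986 (plus) for Kit, whose table entry had 2 starts. Capitals mark GGAAG, the core bound by ETS factors, GATAA, the core bound by GATA factors, and ACAAT, a core bound by SOX factors, each on either strand.
Kdr: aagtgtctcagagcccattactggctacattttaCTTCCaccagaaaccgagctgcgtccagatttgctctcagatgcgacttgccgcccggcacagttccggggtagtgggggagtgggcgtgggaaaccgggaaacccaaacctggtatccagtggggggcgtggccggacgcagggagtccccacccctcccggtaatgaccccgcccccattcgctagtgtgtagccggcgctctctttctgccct
Clec4g: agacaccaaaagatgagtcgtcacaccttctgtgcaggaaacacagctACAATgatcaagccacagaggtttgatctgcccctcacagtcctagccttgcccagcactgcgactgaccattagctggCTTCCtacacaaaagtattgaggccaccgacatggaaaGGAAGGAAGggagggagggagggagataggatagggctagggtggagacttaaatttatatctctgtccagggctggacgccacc
Esm1: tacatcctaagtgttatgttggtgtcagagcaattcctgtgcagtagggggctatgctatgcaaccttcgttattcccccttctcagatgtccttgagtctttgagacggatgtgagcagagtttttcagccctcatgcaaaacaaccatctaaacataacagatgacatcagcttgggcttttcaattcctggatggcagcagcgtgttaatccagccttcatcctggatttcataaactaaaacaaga
Kit: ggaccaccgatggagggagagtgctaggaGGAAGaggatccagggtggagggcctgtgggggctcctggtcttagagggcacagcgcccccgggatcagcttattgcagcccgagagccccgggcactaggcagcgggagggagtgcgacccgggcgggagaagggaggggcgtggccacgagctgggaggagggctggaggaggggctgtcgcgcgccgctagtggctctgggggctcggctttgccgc
The Kdr window held 1 ETS core, the Clec4g window 3 ETS cores, of which 2 overlap, and 1 SOX core, the Kit window 1 ETS core and the Esm1 window none of the motifs. Among 32851 promoters of the same length, 64.1% held an ETS core, 22.6% a GATA core and 27.7% a SOX core, so a match is common and only describes the letters. Of the 6 defining genes, 3 matched the promoter table.

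Members made up 3.74% of kept cells in library 2 (3.30 to 4.22) and 13.0% in library 1 (11.8 to 14.4). Their median depth was 5660 UMIs in library 2 and 3201 in library 1, their median gene number was 2417.5 and 1780, and their median mitochondrial share was 12.5% and 14%. The median member carried 30.5 UMIs of the defining genes in library 2 and 38 in library 1, or 0.565% and 1.22% of its UMIs. All 6 genes were detected in 180 members of library 2 and 243 of library 1. Exactly 5 UMIs, the lowest number allowed, was seen in 4 and 8 members, while 9 and 4 cells with 4 UMIs passed the share and were left out. A further 57 cells of library 2 and 23 of library 1 had 5 UMIs or more but were under the share. Most non-members had no UMI of the 6 genes, namely 5636 cells (84.9%) in library 2 and 1729 cells (74.4%) in library 1.

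Over the whole series, the libraries held 9726 and 8907 barcodes with 56947765 and 33099802 UMIs. The sequences of 955 barcodes occurred in both libraries, and 44 and 815 of the filtered barcodes were dropped for that reason. Members with a sequence present in both libraries numbered 36 in library 2 and 5 in library 1. With all shared sequences kept, the member share was 3.72% in library 2 and 10.1% in library 1, and none of 63 named genes changed the direction of its ratio. Globin transcripts made up 11.9% of the UMIs of kept cells in library 2 and 0.112% in library 1. No doublet caller was run, so droplets that held more than 1 cell may be among the members.

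The 6 defining genes are described without a test, since they chose the cells. Ptprb, an endothelial receptor phosphatase that acts on the angiopoietin receptor, had 1138 CPM (the gene's share of all UMIs of the class, in counts per 1000000) in members of library 2 and 3074 CPM in members of library 1. Kdr, the main VEGF receptor, had 924 and 2490 CPM, and Clec4g, a C-type lectin of liver sinusoids, had 866 and 1400 CPM. Oit3 had 359 and 771 CPM, Gpr182, an atypical chemokine receptor of endothelium, had 695 and 1349 CPM, and Egfl7, a secreted endothelial protein, had 535 and 927 CPM. Other kept cells had at most 16.9 CPM of any of them in library 2 and at most 31.6 CPM in library 1.

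To see whether the 6 genes occurred together, each was measured in cells chosen by the other 5. Ptprb was 146-fold higher in cells so chosen than in all other kept cells in library 2 and 78.9-fold higher in library 1. Kdr was 107-fold and 99.2-fold higher, Clec4g 164-fold and 156-fold, Oit3 261-fold and 295-fold, Gpr182 167-fold and 115-fold, and Egfl7 30.6-fold and 90.8-fold. A UMI of the gene that had been set aside was found in 77.4% (Oit3) to 96.6% (Kdr) of the chosen cells in library 2 and in 80.6% (Oit3) to 99.4% (Ptprb) in library 1. All 6 genes thus marked largely the same droplets in both libraries.

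The label of the cells was then checked against genes that did not choose them. Stab2, the hyaluronan scavenger receptor, had 484 CPM in members against 58.8 CPM in other kept cells of library 2, and 1248 against 104 CPM in library 1. Stab1 had 468 against 17.5 CPM in library 2 and 1023 against 80.7 CPM in library 1. Fcgr2b, the inhibitory Fc receptor that removes immune complexes, had 810 against 9.97 CPM in library 2 and 1774 against 27.0 CPM in library 1. Lyve1, a hyaluronan receptor of sinusoidal and lymphatic endothelium, was scarcer at 56.2 against 0.732 CPM in library 2 and 224 against 2.64 CPM in library 1. In both libraries each of these receptors was at least 8.23-fold higher in members, so defining markers of the labelled cell type were present.

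Across all genes with at least 50 CPM and 30 UMIs in members, 579 of 3260 (17.8%) were at least 2-fold higher in members than in other kept cells of library 2. In library 1 it was 842 of 3940 (21.4%). Genes that passed this minimum only in other kept cells were not tested. Of the 23 tested genes of a sinusoidal endothelial identity list, 21 were at least 2-fold higher in each library. The exceptions were Mrc1, the mannose receptor that Kupffer cells also express, with a log2 difference of 0.87 in both libraries, and Fcna, a ficolin, with −0.42 in library 2 and −1.60 in library 1. Fcna had 3188 CPM in the Kupffer reference cells of library 2 and 1837 CPM in those of library 1, more than in members. The list median was a log2 difference of 5.38 in library 2 and 5.23 in library 1, against 0.17 and 0.22 over all genes tested.

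Dnase1l3, a secreted nuclease, had 938 CPM in members against 16.6 CPM in other kept cells of library 2 and 2262 against 70.6 CPM in library 1. Ehd3, an endocytic recycling protein, had 710 against 16.0 CPM and 3415 against 51.9 CPM. Coagulation factor VIII, encoded by F8 and made in the liver by this endothelium, had 341 against 2.24 CPM and 723 against 3.64 CPM. Bmp2 had 571 against 5.19 CPM and 1601 against 13.3 CPM, and Bmp6 had 86.8 against 0.366 CPM and 66.8 against 0.661 CPM. Aqp1, a water channel that red cells also carry, had 755 against 96.4 CPM in library 2 and 2111 against 11.1 CPM in library 1.

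Over all genes tested, 17.8% in library 2 and 21.4% in library 1 were at least 2-fold higher in members. Of genes of endothelium in general, 18 of 18 tested genes were in library 2 and 20 of 21 in library 1. The exception was Cdh5, VE-cadherin, at 725 CPM in members and 459 CPM in other kept cells of library 1, and Cdh5 had 537 CPM in the Kupffer reference cells of that library. The 20 genes with the highest fold in both libraries, among those with at least 100 CPM in members, were Clec14a, Jam2, Bmp2, Ramp2, Robo4, Cd300lg, Mmrn2, Sema6a, Flt4, Fgd5, Adgrl4, Tek, F8, Tie1, Cyp4b1, Tm4sf1, Cldn5, Tspan7, Gpihbp1 and Ltbp4. Gpihbp1, which holds lipoprotein lipase on capillary endothelium, was 234-fold higher in members than in other kept cells of library 2 and 229-fold higher in library 1. Jam2, a junctional adhesion molecule, had 143 CPM in members of library 2 and 0.640 CPM in the other kept cells there.

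Of the VEGF and angiopoietin list, all 10 tested genes in library 2 and all 9 in library 1 were at least 2-fold higher in members. Kdr, a defining gene, is on this list, so its part in these counts was fixed by the choice of members. The shares over all genes tested were 17.8% and 21.4%, here and for the transcription factors below. Flt1, a VEGF receptor, had 346 against 2.99 CPM in library 2 and 763 against 16.4 CPM in library 1. Tek, the angiopoietin receptor, had 120 against 0.572 CPM and 279 against 2.31 CPM. Among endothelial transcription factors, 10 of 15 were at least 2-fold higher in library 2 and 12 of 20 in library 1. Gata4, which in mouse is required for sinusoidal rather than continuous endothelium, had 69.6 against 0.663 CPM and 171 against 2.48 CPM. Nr2f2, a factor of venous identity, had 250 against 7.61 CPM and 737 against 21.1 CPM. Klf2, a flow-responsive factor that macrophages share, had 480 against 240 CPM and 610 against 475 CPM.

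**Figure D1:**
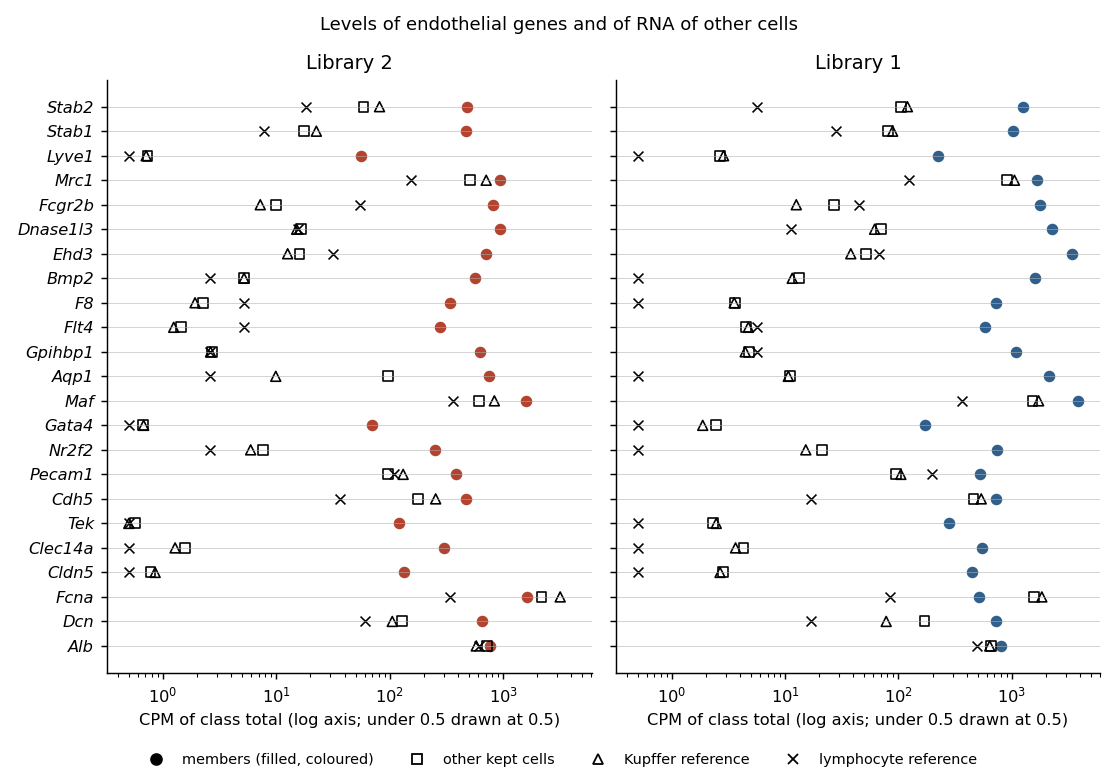
Level of each gene in the members, in the other kept cells, in Kupffer reference cells and in lymphocyte reference cells, in CPM of the class total on a log axis, library 2 on the left and library 1 on the right. Stab2 stood at 484 and 1248 CPM in members, to the right of the 3 other classes in both panels, whereas Fcna stood at 1637 and 518 CPM, to the left of the Kupffer reference cells.

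RNA of other cells was measured beside these genes. The summed level of 8 hepatocyte genes was 1929 CPM in members of library 2 and 1890 CPM in members of library 1, against 1814 and 1739 CPM in other kept cells, close to each other. A list of 10 stellate cell and fibroblast genes summed to 1502 and 1681 CPM in members, against 303 and 377 CPM in other kept cells and 170 and 45.0 CPM in lymphocyte reference cells. All of its tested genes, 4 of 4 in library 2 and 5 of 5 in library 1, were at least 2-fold higher in members, led by Dcn, decorin, at 646 and 720 CPM against 128 and 170 CPM. Over all genes tested, 17.8% and 21.4% were at least 2-fold higher. The part of stellate cell RNA in other results was not tested. The 10 lymphocyte genes summed to 20.7 and 36.3 CPM in members. Of the lymphatic markers, Pdpn had no UMI in any member, with an exact upper bound of 1.42% of members in library 2 and 1.05% in library 1, and Prox1 was at 2.96 and 8.72 CPM. The cholangiocyte genes Epcam, Krt19 and Krt7 were at 0 in members of both libraries.

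RNA of Kupffer cells, the resident liver macrophages that the preparation was made for, was measured in the same way. A list of 15 Kupffer markers summed to 27097 CPM in members of library 2 and 8554 CPM in members of library 1, against 34012 and 26704 CPM in other kept cells, and none of the 15 was at 0 in members of either library. The Kupffer reference was set as non-members with at least 10 UMIs and 0.5% of UMIs from C1qa, C1qb, C1qc and Vsig4, which gave 3335 cells in library 2 and 1702 in library 1. Cd5l, a secreted scavenger protein, and Clec4f, a lectin restricted to Kupffer cells in mouse, summed to 5881 CPM in members of library 2 (5776 to 5988) and 2724 CPM in members of library 1 (2638 to 2813). Those levels were 54.7% and 26.8% of the Kupffer reference cells of the same library. In the lymphocyte reference cells, 114 and 62 non-members with at least 5 UMIs and 0.1% of UMIs from B, T and natural killer cell genes, the 2 tracers stood at 17.1% and 6.31% of the Kupffer level. The pooled level of members was above that of lymphocytes in both libraries, but the median member stood at 21.9% and 4.87% of the Kupffer median and the median lymphocyte at 17.7% and 4.80%.

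The Kupffer level was uneven over members. Members under 25% of the Kupffer median had a pooled tracer level of 9.82% in library 2 and 4.10% in library 1. They were cut on this same level and the lymphocytes were not, so these levels cannot be set against those of lymphocytes. The tracer share was under 25% of the Kupffer median in 137 members of library 2 (53.1%, 46.8 to 59.3) and 283 of library 1 (81.3%, 76.8 to 85.3). It was 50% or more in 88 members of library 2 (34.1%, 28.3 to 40.2) and 51 of library 1 (14.7%, 11.1 to 18.8), and in between in 33 and 14. Depth went with it, at a median of 11034 and 6180 UMIs in members at 50% or more, against 4661 and 2988 UMIs in members under 25%. Their median share of defining genes was 0.215% and 0.266%, against 0.880% and 1.33%. No UMI of either tracer was found in 1 member of library 2 and 92 of library 1. Whether the deep members were droplets with an endothelial cell and a Kupffer cell was not tested.

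Erythroid RNA differed between libraries as well. A UMI of Alas2 or Slc4a1, genes of red cell precursors, was present in 94 members of library 2 (36.4%, 30.6 to 42.6) and 3 of library 1 (0.862%, 0.178 to 2.50). Globin transcripts made up on average 5.47% of UMIs in members of library 2 and 0.00182% in members of library 1. The comparison between libraries was therefore made in all members, in members under 25% of the Kupffer median, and in those of them with no UMI of these 2 erythroid genes, which left 96 and 281 members. In the last group the tracers stood at 11.2% and 4.10% of the Kupffer level and globin transcripts at 0.629% and 0.00189% of UMIs.

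**Figure D2:**
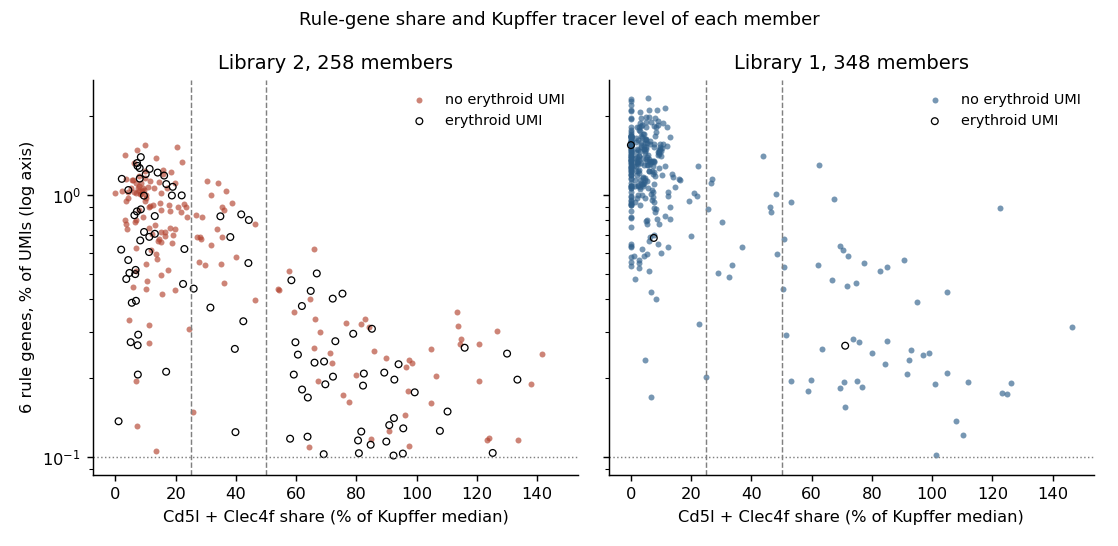
Each point is 1 member, placed by its Cd5l and Clec4f share in percent of the median Kupffer reference cell (dashed lines at 25% and 50%) and by the share of the 6 defining genes among its UMIs on a log axis (dotted line at the 0.1% limit). Open circles carry a UMI of Alas2 or Slc4a1, 94 members in library 2 and 3 in library 1, and the share of defining genes is lower in the 88 and 51 members at 50% or more.

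Between libraries, members of library 2 had at least 2-fold more of 197 genes (4.7% of 4191 tested) and at least 2-fold less of 523 genes (12.5%). With the libraries scaled by the median ratio of genes in place of their totals, 240 genes were higher and 389 lower. The median log2 ratio, library 2 over library 1, was −0.30 over all genes tested, and single ratios are to be read against it. For each gene, the level that Kupffer RNA could account for was set from its Kupffer reference level and the tracer level of members. The resulting Kupffer expectation is given as a percent of the members' level in the library where the gene is higher. It was at least 50% of the measured level for 152 of the 197 higher genes and for 13 of the 523 lower genes. An expectation under 25% was found for 27 of the higher and 481 of the lower genes. For the lower genes it was taken in library 1, so it does not register dilution by other RNA in library 2. Members stood at 54.7% of the Kupffer tracer level in library 2 and 26.8% in library 1. The part of such dilution in the lower genes was not tested. In members under 25% of the Kupffer median, 202 (4.72%) of 4276 genes were at least 2-fold higher and 430 (10.1%) at least 2-fold lower. Without erythroid UMIs, 199 (4.86%) of 4095 were higher and 308 (7.52%) lower.

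The widest ratios among all genes belonged to red cell and macrophage RNA. Hbb-bs, a beta globin, had 23820 CPM in members of library 2 and 4.36 CPM in members of library 1, with Hbb-bt, Hba-a1 and Hba-a2 alike. Alas2, the erythroid enzyme of heme synthesis, had 167 and 2.18 CPM, a log2 ratio of 6.26. Cd24a, a surface protein of red cell precursors among others, had 110 CPM in library 2 and no UMI in library 1, which is at least 50.3-fold higher against a floor of 3 UMIs per library. Marco, a scavenger receptor of macrophages, had 7342 and 244 CPM, and its Kupffer expectation was 92.9% of that level. Hmox1, the heme-degrading enzyme, had 4909 and 278 CPM with an expectation of 88.9%. After thinning to 1000 UMIs a cell, Marco was found in 89.4% of lymphocyte reference cells of library 2 and 1.64% of those of library 1. Hmox1 was found in 77.9% and 3.28% of them. The part of carried-over RNA in these values was not tested. Clec4n, a macrophage lectin, had 560 and 37.0 CPM with an expectation of 101%.

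Gda, guanine deaminase, differed from those genes. It had 145 CPM in members of library 2 and 4.36 CPM in members of library 1, a log2 ratio of 5.05 (3.91 to 6.51), with a Kupffer expectation of 28.2%. In members under 25% of the Kupffer median it had 218 and 5.21 CPM, a log2 ratio of 5.38, and the expectation was 3.36%.

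Of 6 tested MHC class II genes, which serve antigen presentation, 5 were at least 2-fold lower in all members, against 12.5% over all genes tested. H2-Aa, H2-Ab1, H2-Eb1 and Cd74 were among the lowest ratios of all genes. H2-Aa had 64.6 CPM in library 2 and 806 CPM in library 1, and Cd74, the invariant chain, had 246 and 1405 CPM. Their Kupffer expectation was 101% to 122% of the level, and in the Kupffer reference cells the log2 ratios were −4.44 for H2-Aa and −3.55 for Cd74. In members under 25% of the Kupffer median the log2 ratios were −0.47 for H2-Aa, −0.22 for H2-Ab1, −0.15 for H2-Eb1 and −0.27 for Cd74, and without erythroid UMIs they were positive, between 0.27 and 0.59.

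Among genes with a Kupffer expectation under 25%, Esm1 had the highest ratio. Esm1 encodes endocan, a secreted proteoglycan of VEGF-stimulated and tip endothelial cells, and lies at chr13:113209659-113218098 on the plus strand (GRCm38, as are the other gene positions). It had 280 UMIs or 138 CPM in members of library 2 (122 to 155) and 1 UMI or 0.726 CPM in members of library 1 (0.0184 to 4.05), a log2 ratio of 7.57 (5.08 to 12.88). In members under 25% of the Kupffer median it had 266 and 1.04 CPM, and the log2 ratio was 8.00, or 8.13 without erythroid UMIs. It was found in 80 of 258 members of library 2 and 1 of 348 members of library 1. No lymphocyte reference cell of either library had a UMI of Esm1, with exact upper bounds of 3.18% and 5.78%, and the Kupffer reference cells had 0.640 CPM in library 2 and none in library 1.

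Vwf, the von Willebrand factor of platelet capture, which sinusoidal endothelium carries at low level, lies at chr6:125546774-125686679. It had 349 CPM in members of library 2 (324 to 376) and 24.0 CPM in members of library 1 (16.5 to 33.7), a log2 ratio of 3.87 (3.36 to 4.42), and 4.61 in members under 25% without erythroid UMIs. Selp, P-selectin, which is stored with Vwf in endothelium and platelets, had 74.3 and 1.04 CPM in members under 25%. Itgb3, an integrin chain that platelets also carry, had 126 and 26.1 CPM in all members. The platelet genes Pf4, Ppbp, Itga2b and Gp9 had 34.5, 0.987, 9.37 and 0 CPM in members of library 2 and 19.6, 0.726, 10.9 and 0 CPM in members of library 1. The whole platelet list of 7 genes, Itgb3 included, summed to 172 CPM in members of library 2 and 58.1 CPM in members of library 1, against 296 and 74.6 CPM in other kept cells. The part of platelet RNA in the Vwf, Selp and Itgb3 ratios was not tested.

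Lrg1, a secreted glycoprotein that acts on endothelial TGF-beta signalling, had 155 CPM in members of library 2 and 10.2 CPM in members of library 1, a log2 ratio of 3.93 (3.17 to 4.82). Apold1, an endothelial early response gene, had 187 and 20.3 CPM, a log2 ratio of 3.20. Vegfc, the growth factor for Flt4, had 71.5 and 13.8 CPM, a log2 ratio of 2.37 (1.68 to 3.15), and 141 and 18.8 CPM in members under 25%. The fatty acid binding proteins Fabp4 and Fabp5 had 1837 and 922 CPM in library 2 and 537 and 188 CPM in library 1, log2 ratios of 1.78 and 2.29. Fabp5 had a higher log2 ratio, 3.95, in the Kupffer reference cells, where Fabp4 had 1.49. The other 5 of the 12 highest genes were Clca3a1, Abcc9, Mt2, a metallothionein, Ctla2a and Sod3, the extracellular superoxide dismutase, with log2 ratios between 1.37 and 1.86. Each of the 12 had a higher ratio in members under 25% of the Kupffer median than in all members. That cut lowered the tracer level from 54.7% to 9.82% in library 2 and from 26.8% to 4.10% in library 1. Since the 12 were chosen for a low Kupffer expectation, the rise is tied to the choice and the cut and gives no separate support.

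Kit, the receptor for stem cell factor, which mouse sinusoidal endothelium carries towards the central vein, had the lowest ratio. It lies at chr5:75574916-75656722 on the plus strand. It had 33 UMIs or 16.3 CPM in members of library 2 (11.2 to 22.9) and 293 UMIs or 213 CPM in members of library 1 (189 to 239), a log2 ratio of −3.71 (−4.27 to −3.19). The ratio was −3.51 in members under 25% of the Kupffer median and −3.02 without erythroid UMIs. Wnt2, the central WNT ligand, had 18.3 CPM in library 2 (12.9 to 25.2) and 156 CPM in library 1 (136 to 178), a log2 ratio of −3.10, and −2.75 in members under 25%. Gas6, a ligand of TAM receptor kinases, had 52.3 and 308 CPM, a log2 ratio of −2.56, while the Kupffer reference cells had 0.60 in the other direction.

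Ehd3 had a log2 ratio of −2.27 (−2.35 to −2.18) in all members and −1.95 in members under 25%, where it had 1134 CPM in library 2 and 4391 CPM in library 1. The 12 lowest also included Slc7a2, Stox2, Tcim, Cps1, Atp2b4, Ralgapa2 and Cyp3a11, with log2 ratios between −3.63 and −2.19. Of these, Cps1 and Cyp3a11 are hepatocyte enzymes, and Cps1 had 20.2 and 115 CPM in members against 23.7 and 116 CPM in other kept cells. Slc7a2, a transporter of cationic amino acids, had 9.87 and 122 CPM in members against 16.0 and 123 CPM in other kept cells, so in library 1 both genes had about the same level in members and in other kept cells.

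**Figure D3:**
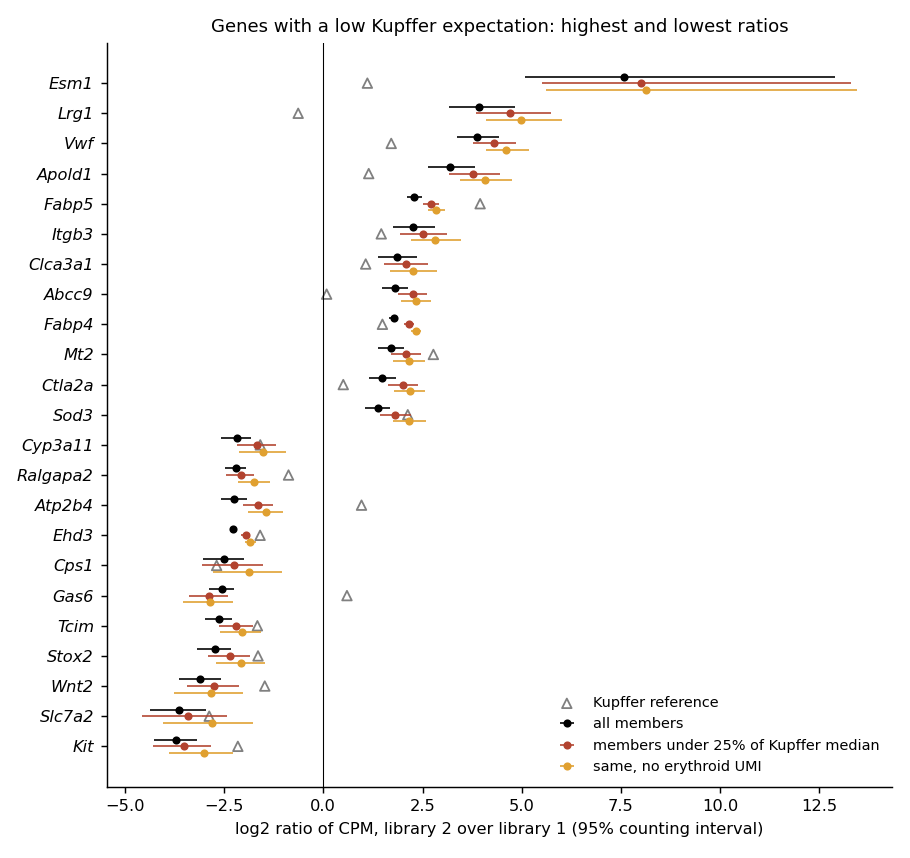
Log2 ratio of CPM, library 2 over library 1, with its 95% counting interval for the 12 highest and 11 of the 12 lowest genes whose Kupffer expectation is under 25%, in all members, in members under 25% of the Kupffer median and in those without erythroid UMIs, and in Kupffer reference cells (triangles, no interval). Esm1 is at 7.57 and Kit at −3.71 in all members, and for all 23 genes the 3 member sets lie on the same side of 0.

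To set shares of cells side by side at 1 depth, each member under 25% of the Kupffer median was thinned to 1000 UMIs, which left out 2 members of library 2 and 11 of library 1. Esm1 was then found in 23.0% of 135 members of library 2 (16.2 to 31.0) and 0.368% of 272 members of library 1 (0.00931 to 2.03). Vwf was found in 37.8% (29.6 to 46.5) and 1.10% (0.228 to 3.19), Lrg1 in 25.2% and 0.735%, and Apold1 in 28.9% and 1.84%. Kit was found in 2.22% (0.461 to 6.36) and 25% (20 to 30.6), Wnt2 in 3.70% and 15.4%, and Gas6 in 5.93% and 33.8%. The intervals of Esm1, Vwf and Kit did not overlap between libraries. Those of Stab2, given below, and Ehd3, at 65.9% (57.3 to 73.9) and 97.8% (95.3 to 99.2), did not overlap either. Non-overlap was thus not particular to Esm1, Vwf and Kit, and no share over all genes is given. Esm1, Vwf, Lrg1, Apold1, Kit, Wnt2 and Gas6 were named for their ratios in the same members. Their shares describe those ratios and give no separate support. Unthinned shares were 35.0% and 0.353% for Esm1, 78.1% and 2.83% for Vwf, and 10.2% and 45.9% for Kit. In thinned lymphocyte reference cells Esm1, Vegfc, Apold1 and Kit were at 0 in both libraries, and Vwf was in 1.77% of 113 and 0 of 61 cells. Stab2 was found in 55.6% (46.8 to 64.1) and 76.8% (71.4 to 81.7) of thinned members, so it was common in both libraries but less frequent in library 2.

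**Figure D4:**
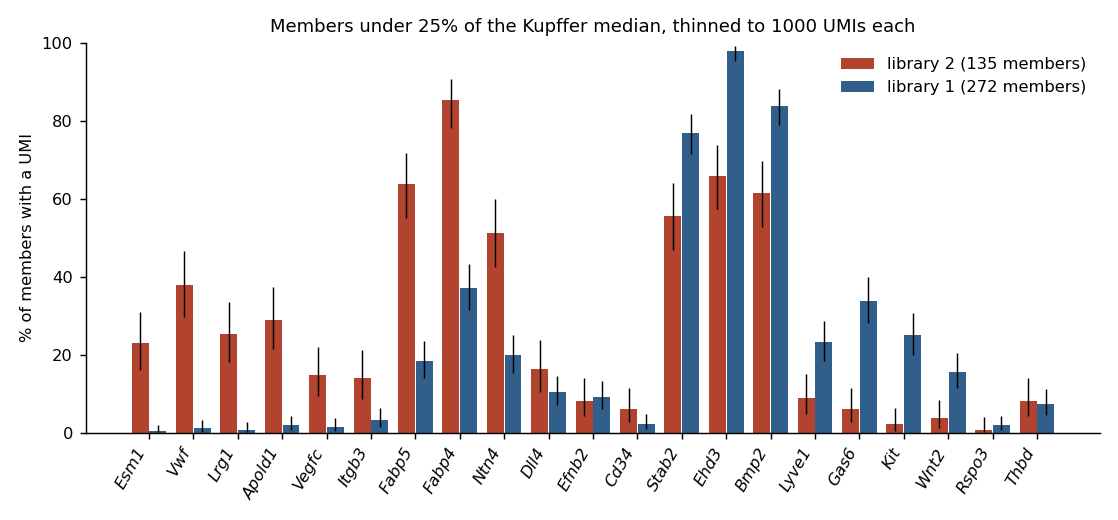
Percent of members under 25% of the Kupffer median with at least 1 UMI of each gene after thinning to 1000 UMIs, 135 members of library 2 and 272 of library 1, with exact 95% intervals. Esm1, Vwf, Lrg1 and Apold1 stand at 23.0% to 37.8% in library 2 and under 2% in library 1, Kit and Wnt2 the other way round, and Efnb2 and Thbd at similar heights.

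The identity genes themselves were mostly lower in library 2. In all members 14 of 23 were at least 2-fold lower and 1, Fcna, at least 2-fold higher, with a median log2 ratio of −1.09. The median was −0.76 in members under 25%, with 7 lower and 3 higher, and without erythroid UMIs −0.57, with 4 lower and 3 higher. Over all genes tested, 12.5%, 10.1% and 7.52% were lower in the 3 sets, and 4.7%, 4.72% and 4.86% higher. All members stood at 54.7% of the Kupffer tracer level in library 2 and 26.8% in library 1. The part of Kupffer RNA in these lower levels was not tested. The 6 defining genes had medians of −1.03, −0.55 and −0.41 in the 3 sets. Bmp2 had 571 CPM in members of library 2 and 1601 CPM in members of library 1, a log2 ratio of −1.49 (−1.59 to −1.38), and −1.25 and −1.05 in the smaller sets. Lyve1 had log2 ratios of −2.00, −1.56 and −1.09 in the 3 sets. Cd36, a fatty acid and scavenger receptor, went the other way, with 1500 and 737 CPM in members under 25%, a log2 ratio of 1.03.

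Among genes of VEGF and angiopoietin signalling, 8 of 10 genes were at least 2-fold lower and 1, Vegfc, higher in all members, with a median of −1.18. There were 3 lower and 1 higher of 10 in members under 25%, with a median of −0.77. Without erythroid UMIs only Nrp1 of 11 was lower, while Vegfa and Vegfc were higher, and the median was −0.58. Nrp1, a VEGF co-receptor, had 562 and 1796 CPM in members under 25%, a log2 ratio of −1.68, and Kdr had 1453 and 3113 CPM, a log2 ratio of −1.10. Of 21 genes of endothelium in general, 10 were at least 2-fold lower and none higher in all members, with a median of −0.96, against 12.5% lower and 4.7% higher over all genes. In members under 25%, 2 of the 21 were lower, a share near the 10.1% over all genes, and the median was −0.49. The same count without erythroid UMIs came with a median of −0.20, close to the −0.17 over all genes. Sox18, an endothelial transcription factor, had 25.7 and 113 CPM in members under 25%, a log2 ratio of −2.13, and Cldn5, a tight junction protein, had 230 and 579 CPM, a log2 ratio of −1.33. The junction gene Pecam1 had 581 and 645 CPM, a log2 ratio of −0.15, and Esam 409 and 330 CPM, a log2 ratio of 0.31.

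Of 20 tested endothelial transcription factors, 6 were at least 2-fold lower in all members and none higher, with a median of −0.90, and 4 of 22 were lower in members under 25%, with a median of −0.53. Without erythroid UMIs 3 of 22 were lower, with a median of −0.29. Over all genes tested, 12.5%, 10.1% and 7.52% were lower in the 3 sets, with medians of −0.30, −0.26 and −0.17. Maf, which shapes sinusoidal identity in mouse, had 2033 and 4429 CPM in members under 25%, a log2 ratio of −1.12. Meis2, a homeobox factor, had 337 and 812 CPM there, a log2 ratio of −1.27, and Gata4 had 120 and 230 CPM, a log2 ratio of −0.94. Ets1, by contrast, had 757 and 873 CPM, a log2 ratio of −0.21.

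Among BMP and TGF-beta genes, the 2 hepcidin-controlling ligands differed in direction. Bmp6 had 147 and 90.7 CPM in members under 25%, a log2 ratio of 0.70 that was short of 2-fold, beside the lower Bmp2 given above. Eng, endoglin, a co-receptor for these ligands, had 1034 and 1386 CPM, a log2 ratio of −0.42. The list median over 13 genes was −0.52 in all members, −0.24 in members under 25% and −0.081 without erythroid UMIs, against −0.30, −0.26 and −0.17 over all genes. Of the clotting genes, F8 had 612 and 955 CPM and Tfpi, an inhibitor of tissue factor, had 405 and 339 CPM in members under 25%, and Vwf alone of the 6 tested there was at least 2-fold higher.

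Genes placed along the lobule did not move as 1 group. On the central list, Kit and Wnt2 were at least 2-fold lower in all members, Fabp4 was at least 2-fold higher, and Plvap, a diaphragm protein, had 328 and 373 CPM in members under 25%. Rspo3, which strengthens WNT signals, had 14.9 and 46.9 CPM there, under the minimum for a call, and Thbd, thrombomodulin, had 64.9 and 80.2 CPM. On the portal list, no gene was at least 2-fold higher in all members, and Ltbp4 and Lama4 were at least 2-fold lower. Ntn4, a laminin-related protein, had 664 and 325 CPM in members under 25%, a log2 ratio of 1.03, Efnb2, ephrin B2, had 93.2 and 92.7 CPM, and the Notch ligand Dll4 had 127 and 107 CPM there. The portal list had medians of −0.27, 0.29 and 0.33 in all members, in members under 25% and without erythroid UMIs, and the central list −0.79, −0.31 and 0.069. Over all genes tested the medians were −0.30, −0.26 and −0.17, and in all members 12.5% were at least 2-fold lower and 4.7% higher. In all members 9 genes of the portal list and 6 of the central list were tested.

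Of the list for large vessels and capillarized endothelium, 3 of 8 genes, Esm1, Vwf and Vcam1, were at least 2-fold higher and 1, Lama4, lower in all members. Over all genes tested there, 4.7% were higher and 12.5% lower. Vcam1, an adhesion molecule, had 1039 and 191 CPM, with a Kupffer expectation of 104%, and 274 and 135 CPM in members under 25% with an expectation of 70.9%. Cd34 was in 5.93% (2.59 to 11.3) and 2.21% (0.814 to 4.74) of thinned members, and these intervals overlap. Col4a1 and Col4a2, basement membrane collagens, had 580 and 346 CPM in members of library 2 under 25% and 627 and 248 CPM in those of library 1.

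Immediate early genes, which respond to stimuli within minutes, were higher in the sets with less Kupffer RNA. In all members 2 of 11, Junb and Ier3, were at least 2-fold higher, with a median of 0.42, and in members under 25% 6 of 11 were, with a median of 1.05. Without erythroid UMIs 7 of 11 were, with a median of 1.26. Over all genes tested, 4.7% were at least 2-fold higher in all members, 4.72% in members under 25% and 4.86% without erythroid UMIs. Fos had 111 and 14.6 CPM in members under 25%, a log2 ratio of 2.93, and a log2 ratio of −1.22 in Kupffer reference cells. Heat shock genes were at least 2-fold higher for 5 of 10 in all members and 7 of 10 in members under 25%, with medians of 1.08 and 1.15, and for 4 of 9 without erythroid UMIs, with a median of 0.95. Hspa1b, an inducible chaperone, had 81.1 and 8.34 CPM in members under 25%, and a log2 ratio of 4.56 in Kupffer reference cells.

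Heme and iron genes were higher for 8 of 16 in all members, with a median of 1.07, and NRF2 targets for 7 of 8, with a median of 1.58. The share over all genes tested was 4.7% there, 4.72% in members under 25% and 4.86% without erythroid UMIs. The counts were smaller in the other sets. Heme and iron genes were higher for 6 of 14 in members under 25% and 3 of 12 without erythroid UMIs, and NRF2 targets for 4 of 8 in both, with medians of 1.18 and 1.17. The ferritin chain Fth1 had 11752 and 1333 CPM, with a Kupffer expectation of 97.1%, and 2796 and 699 CPM in members under 25%, with an expectation of 73.2%. Ftl1, the other chain, had 4402 and 1572 CPM in members under 25%, a log2 ratio of 1.49, with an expectation of 26.7%. Tfrc, the transferrin receptor of dividing and red cell precursors, had 101 and 5.21 CPM there, a log2 ratio of 4.28, while in members without erythroid UMIs it had 29.5 and 5.25 CPM, under the minimum for a call. Mki67, Top2a and Ube2c, genes of dividing cells, were at least 2-fold higher in members under 25%, at 54.1, 56.8 and 51.4 CPM in library 2 and 3.13, 4.17 and 4.17 CPM in library 1. None of them reached the minimum in members without erythroid UMIs, where Mki67 had 13.6 and 3.15 CPM. Interferon-response genes had none of 12 past 2-fold in all members, with a median of −0.05.

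**Figure D5:**
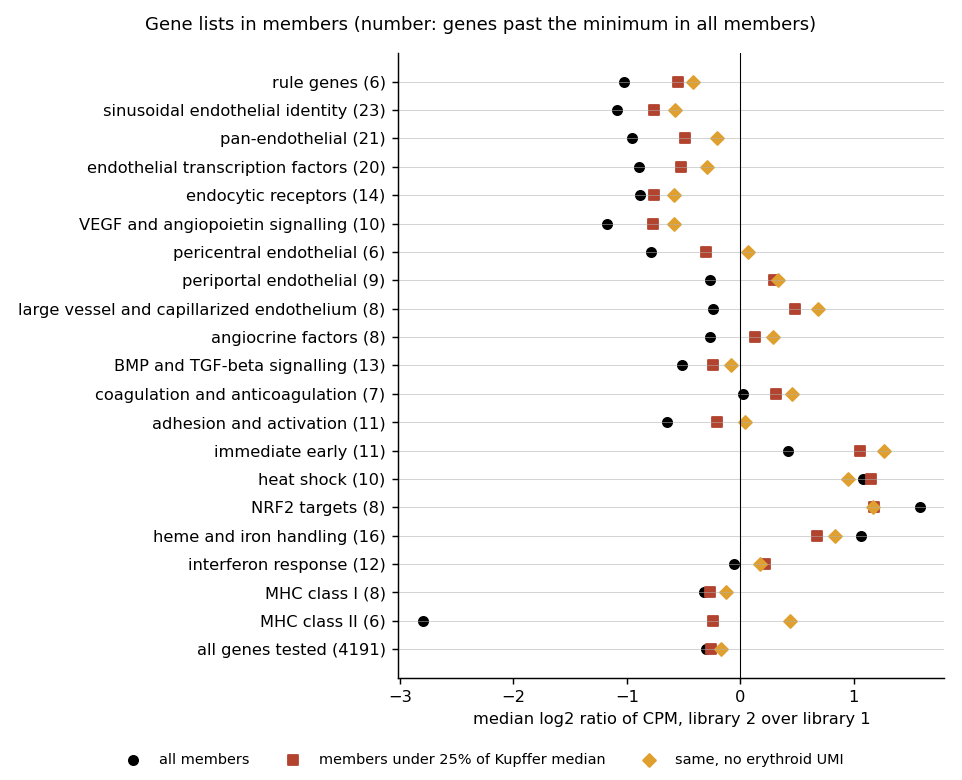
Median log2 ratio of CPM, library 2 over library 1, for each gene list in all members (circles), in members under 25% of the Kupffer median (squares) and in those without erythroid UMIs (diamonds), with the number of genes past the minimum in all members beside the name. Identity genes stand at −1.09, −0.76 and −0.57, MHC class II genes at −2.80, −0.25 and 0.44 (6, 4 and 4 genes), and all genes tested at −0.30, −0.26 and −0.17.

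Within a library, the genes that marked the difference did not all sit in the same members. In library 2, of 48 members under 25% with a UMI of Esm1, 62.5% had a UMI of Vegfc (47.4 to 76.0), against 30.3% of 89 members without Esm1 (21 to 41.0). Ntn4 was in 95.8% of members with Esm1 (85.7 to 99.5) and 73.0% of those without (62.6 to 81.9). Wnt2 was in 4.17% of members with Esm1 (0.509 to 14.3) and 16.9% of those without (9.75 to 26.3), and Thbd in 8.33% and 27.0%. Median depths were 5034.5 UMIs with Esm1 and 4543 without. Vwf was in 75% of members with Esm1 and 79.8% of those without, so Vwf was spread over members with and without Esm1.

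In library 1, of 130 members under 25% with a UMI of Kit, 56.9% had a UMI of Wnt2 (48.0 to 65.6), against 23.5% of 153 without Kit (17.1 to 31.1). Ntn4 was in 35.4% of members with Kit (27.2 to 44.2) and 51.6% of those without (43.4 to 59.8). Of 67 members with Efnb2, 74.6% had Ntn4 (62.5 to 84.5), against 34.7% of 216 without (28.4 to 41.5). Wnt2 was thus more frequent beside Kit, and Ntn4 beside Efnb2, with median depths of 3238.5 UMIs with Kit and 2714 without, and 3535 with Efnb2 and 2827 without. In library 2, of 14 members with Kit, 35.7% had Wnt2 (12.8 to 64.9), against 9.76% of 123 without (5.14 to 16.4). The few Vwf-positive members of library 1, 8 cells, had Thbd in 87.5% (47.3 to 99.7), against 14.5% of the 275 others (10.6 to 19.3), at median depths of 4142.5 and 2944 UMIs. Members share a library, and these shares carry no test.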

How the data were processed

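The authors deposited 1 matrix of unnormalized UMI counts that covers both libraries. The submitters' processing notes name Cell Ranger 3.0.1, R 3.6.1 and GRCm38.p5. The annotation release is not given in the sources used here, and gene coordinates come from GENCODE M21 by gene ID, with 366 of 367 IDs matched. The matrix holds 26078 genes.

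Counts were summed per library and class and scaled to CPM with python 3.11.15, numpy 2.4.6, scipy 1.17.1 and pandas 2.3.3, and drawn with matplotlib 3.10.9. A gene entered the comparison with other kept cells if it had at least 50 CPM and 30 UMIs in members. For the comparison between libraries it needed both in members of either library. A count of 0 was replaced by 3 UMIs. Intervals at 95% are Clopper-Pearson for shares, exact Poisson for CPM and conditional exact for ratios, and they cover counting error only. No test was run, because each side of the comparison is 1 library and its cells are no replicates. The Kupffer expectation is the Kupffer reference level times the ratio of Cd5l and Clec4f between members and Kupffer reference cells. The ratio calculation was tested on simulated data.

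The members and the 35 gene lists were chosen with earlier results of these data known. Genes are named as members of those lists, or as the 20 highest folds over other kept cells in both libraries and the 12 highest and 12 lowest ratios between libraries, over all genes and over genes with a Kupffer expectation under 25%, each with at least 100 CPM. The sets under 25% of the Kupffer median, with and without erythroid UMIs, were added after seeing the data. Doublets were not called. One gene that the ranks select is not reported here.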

Additional observations from a re-analysis of the deposited data

Results flagged for a closer look

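Barcodes with over 20% mitochondrial UMIs that met the rule on the 6 defining genes were outside every comparison above, and there were 163 of them in library 2 and 478 in library 1. Without those with shared sequences, 161 and 478 remained, with median depths of 3397 and 1884 UMIs and median mitochondrial shares of 28.2% and 31.1%. In these barcodes Esm1 had 175 CPM in library 2 and 1.43 CPM in library 1, a log2 ratio of 6.94 (5.05 to 10.00), and Vwf had 278 and 2.14 CPM, a log2 ratio of 7.02 (5.45 to 9.31). Lrg1 had a log2 ratio of 2.80, Apold1 3.14, Vegfc 3.66, Fabp4 2.66 and Fabp5 2.78. Kit had 33.7 and 155 CPM, a log2 ratio of −2.20 (−2.92 to −1.55), Wnt2 −1.01, Gas6 −1.56 and Ehd3 −1.67. Stab2 had a log2 ratio of −0.45 and Bmp2 −0.65. Of the 6 defining genes, which chose these barcodes too, Ptprb had −0.98, Kdr −0.77, Oit3 −0.35 and Gpr182 −0.22. Clec4g, at 0.17 (0.0077 to 0.34), and Egfl7, at 0.20 (0.035 to 0.37), were on the other side of 0 from members, where they had −0.69 and −0.79. The other 17 of the 19 genes measured had the direction seen in members. Esm1, Vwf, Kit and others of them were named for their ratios in members of the same 2 libraries. Their directions here therefore give no separate support, and no share over all genes is given beside them. The median Cd5l and Clec4f share of these barcodes was 23.3% and 10.4% of the Kupffer median, and its part in these values was not tested.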

How the results depend on the processing

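The share of members moved beyond its counting interval under several settings. In library 2 it was 2.58% with at least 0.3% of UMIs from the defining genes, 2.85% with at most 10% mitochondrial UMIs, 4.29% with at most 40%, and 4.44% with at least 500 genes. In library 1 it was 11.7% with at least 10 UMIs of the defining genes, 9.50% with at most 10% mitochondrial UMIs and 10.1% with shared sequences kept. Library 1 had the higher share under each setting. Genes at least 2-fold higher in members than in other kept cells numbered 988 (0.3%) and 1026 (members under 25% of the Kupffer median) in library 2, and 539 (10% mitochondrial) in library 1. The Kupffer tracer level of members in library 2 was 27.6% (0.3%), 57.2% (10% mitochondrial), 51.2% (40% mitochondrial), 5.91% (members under 10%), 9.82% (members under 25%), 56.5% (Cd5l alone) and 49.1% (Clec4f alone). In library 1 it was 12.2%, 28.7%, 29.4%, 3.38%, 4.10%, 28.7% and 23.9% under the same settings, and 25.4% with at least 10 UMIs. Between libraries, 435 genes were at least 2-fold higher and 1535 lower with a minimum of 10 CPM, and 328 (0.3%) and 308 (under 25% without erythroid UMIs) were lower. Single ratios turned round for Tm4sf1 (0.23) and Cyp4b1 (0.043) in members under 25% without erythroid UMIs, and for Jam2 with 0.3% (0.18), under 10% (0.13), under 25% (0.21), under 25% without erythroid UMIs (0.50) and as a mean of cell shares (0.070). The MHC class II genes turned round in members under 10% and in those under 25% without erythroid UMIs: H2-Ab1 to 0.61 and 0.48, H2-Aa to 0.23 and 0.27, H2-Eb1 to 0.48 and 0.59, Cd74 to 0.28 and 0.40, and the list median to 0.40 and 0.44. Totals without globin and mitochondrial genes, and median ratio scaling, turned round none of the 63 genes and 27 lists. The cause was not tested. No replicate could be left out, since each side of the comparison is 1 library. No paired analysis was possible because no label pairs the libraries by number and no test was run.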
